A study of Mus musculus with 18 samples.

Results

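The genes described are the sensors by which liver and gut cells detect foreign chemicals: the nuclear receptors Nr1i3 (encoding the constitutive androstane receptor, CAR) and Nr1i2 (the pregnane X receptor, PXR), their partner Rxra, the aryl hydrocarbon receptor gene Ahr, its partner Arnt, the AhR repressor Ahrr, the AhR target Tiparp, and Por, whose product passes electrons to P450 enzymes. They were chosen by gene symbol in the array's platform annotation. Of the 8 genes, 7 had a probe set under that symbol, with 8 probe sets among the 41345 on the array, which cover 22180 genes with 1 symbol each. No probe set was listed under Por, so Por was not analysed here.

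Messenger RNA was measured on 1 Affymetrix whole-transcript array per sample in livers and small intestines of recipient mice labelled C57BL/6. All recipients were germ-free, that is raised without microbes, were 5 to 6 weeks old when they received gut microbiota, and were sampled 8 weeks later. OMT recipients received microbiota from old donors, given as 24 months or 2 years of age, and YMT recipients from young donors, given as 4 weeks of age in one label and as 5 to 6 weeks in another. Each tissue had 5 OMT and 4 YMT arrays, labelled as biological replicates. The labels give the recipients' age at sampling as 12 and as 13 weeks. The number of donors and of cages per group is not given in the sources used here, so a shared donor or cage cannot be told apart from donor age. The question the design addresses is how metabolism in the gut and liver differed with the age of the microbiota donor.

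CAR and PXR are receptors that sense drugs, steroids and bile acids. Each pairs with RXR alpha, the product of Rxra, on DNA and switches on genes for P450 enzymes, conjugating enzymes and transporters, CAR after leaving a chaperone complex in the cytosol. AhR waits in a similar complex with HSP90, binds planar pollutants as well as plant and microbial indoles, and enters the nucleus to pair with ARNT on the core sequence GCGTG. It then induces Cyp1a1 along with genes that limit it, among them Ahrr, whose product competes for ARNT, and Tiparp, whose product marks AhR for breakdown.

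The values are log2 array levels as the authors deposited them, and a difference is OMT minus YMT with its standard error (SE). A difference was called where limma's adjusted p, Benjamini-Hochberg over all genes tested in that tissue, was under 0.05. Array medians lay between 4.13 and 4.22 in OMT livers, between 4.12 and 4.19 in YMT livers, between 4.42 and 4.51 in OMT intestines and between 4.39 and 4.45 in YMT intestines. The tissue labels held: the mean level of 6 hepatocyte markers lay between 12.41 and 12.54 on OMT liver arrays and between 12.44 and 12.50 on YMT liver arrays, and that of 6 enterocyte markers between 11.97 and 12.38 on OMT and between 11.61 and 12.38 on YMT intestine arrays. In liver, OMT replicates 1 and 2 lay apart from OMT replicates 3 to 5 in several target genes described below. Counts in liver are therefore also given without them. That choice was made after the data were seen and from these same genes, so the recounts are no separate test of the targets. Precision is limited by the number of arrays per group.

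The promoter windows of the 3 sensor genes that have one and were called in liver, and of Tiparp, which was called in intestine, are printed because these are the members whose transcripts differed between the groups. They are RefSeq sequences of assembly GRCm38.p6, from 250 bases before to 50 bases after the gene's start, written 5′ to 3′ on the gene's own strand. Capitals mark the AhR core GCGTG on either strand, read as CACGC on the other one.
Nr1i3 (chr1:171213720-171214019, plus strand): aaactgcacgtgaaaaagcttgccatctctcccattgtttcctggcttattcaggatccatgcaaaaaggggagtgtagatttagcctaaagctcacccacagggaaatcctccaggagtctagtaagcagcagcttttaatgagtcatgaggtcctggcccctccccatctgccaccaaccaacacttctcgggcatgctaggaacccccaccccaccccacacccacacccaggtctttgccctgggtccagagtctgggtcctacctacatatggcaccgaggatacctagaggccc
Nr1i2 (chr16:38294775-38295074, minus strand): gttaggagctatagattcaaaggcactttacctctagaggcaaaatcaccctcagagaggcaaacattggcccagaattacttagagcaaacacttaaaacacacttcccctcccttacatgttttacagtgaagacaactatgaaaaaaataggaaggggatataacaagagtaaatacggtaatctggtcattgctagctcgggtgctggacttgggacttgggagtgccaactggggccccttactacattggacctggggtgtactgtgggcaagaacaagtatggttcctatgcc
Arnt (chr3:95434140-95434439, plus strand): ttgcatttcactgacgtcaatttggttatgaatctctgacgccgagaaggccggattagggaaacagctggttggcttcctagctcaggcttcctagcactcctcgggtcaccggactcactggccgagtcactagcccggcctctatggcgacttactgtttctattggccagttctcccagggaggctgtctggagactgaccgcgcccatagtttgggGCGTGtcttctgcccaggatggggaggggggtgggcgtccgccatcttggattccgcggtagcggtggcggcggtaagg
Tiparp (chr3:65528197-65528496, plus strand): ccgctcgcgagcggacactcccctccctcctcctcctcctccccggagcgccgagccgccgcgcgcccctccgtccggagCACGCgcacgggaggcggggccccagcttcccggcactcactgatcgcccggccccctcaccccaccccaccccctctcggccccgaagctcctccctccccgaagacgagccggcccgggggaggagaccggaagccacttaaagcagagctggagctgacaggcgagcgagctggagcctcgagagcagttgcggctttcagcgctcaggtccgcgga
Of the 8 genes 7 had a window in the RefSeq table, all but Ahr. The windows of Nr1i3 and Nr1i2 hold neither GCGTG nor the nuclear receptor core AGGTCA on either strand. Arnt and Tiparp hold 1 GCGTG core each, as does the window of Cyp1a1, the textbook AhR target, and Ahrr holds 3. GCGTG occurred in 32.4% of the 32851 windows of this length and AGGTCA in 16.3%, so a single match is a description of the letters and not of a binding site. The 2 motifs do not overlap in any of these windows.

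In liver, 4 of the 6 members tested were higher in OMT than in YMT recipients and none was lower. These were both xenobiotic receptors, Nr1i3 and Nr1i2, and both partners of the AhR heterodimer, Ahr and Arnt. Over all 13380 genes tested in liver, 19.2% were called, 10.4% higher and 8.78% lower. The count of members remained 4 without OMT replicates 1 and 2. In the small intestine 1 of 7 members, Tiparp, was called, higher in OMT, where 4.14% of 13238 genes were called, 1.04% higher and 3.1% lower. In a bulk tissue, more cells of a type and more RNA per cell cannot be told apart.

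The CAR transcript had the largest difference among the members. The level of Nr1i3 (probe set 17219231) was 9.76, 9.90, 9.91, 9.87 and 10.16 in OMT livers, against 7.46, 7.98, 8.08 and 8.50 in YMT livers. All OMT livers lay above all YMT livers, and the OMT arrays were close to each other while the YMT arrays spread over about a full log2 unit. The means were 9.92 ± 0.15 (SD, n = 5) in OMT and 8.01 ± 0.43 (SD, n = 4) in YMT, a difference of 1.92 ± 0.17 or 3.77-fold (limma adjusted p = 5.968e-05), which ranked 66 by p among the liver genes. In the intestine Nr1i3 was at 8.51, 7.48, 7.82, 7.86 and 6.92 in OMT, against 6.16, 7.17, 7.47 and 6.93 in YMT. These groups overlapped, and the difference of 0.79 ± 0.32 was not called (limma adjusted p = 0.183).

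The PXR transcript differed in liver and not detectably in intestine. Nr1i2 (probe set 17330323) was at 8.72, 8.69, 8.34, 8.35 and 8.57 in OMT livers, against 7.75, 7.71, 8.08 and 7.92 in YMT livers. The groups did not overlap in liver, where the difference was 0.67 ± 0.11 or 1.59-fold (limma adjusted p = 0.00206). In the intestine the levels were 8.52, 8.38, 8.56, 8.68 and 8.48 in OMT, against 8.68, 8.59, 8.67 and 8.42 in YMT. The intestinal ranges lay on top of each other, with a difference of -0.07 ± 0.08 (limma adjusted p = 0.675).

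Rxra, the shared partner of CAR and PXR, was not called in either tissue. Its probe set (17368550) was at 9.01, 9.10, 8.96, 8.84 and 9.14 in OMT livers, against 8.80, 8.67, 9.05 and 8.82 in YMT livers. The groups overlapped and the difference was 0.18 ± 0.09 (limma adjusted p = 0.219). In the intestine it was at 7.54, 7.87, 7.74, 7.80 and 7.78 in OMT, against 8.02, 7.89, 7.81 and 7.94 in YMT, a difference of -0.17 ± 0.08 (limma adjusted p = 0.251), again with overlapping groups.

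**Figure D1:**
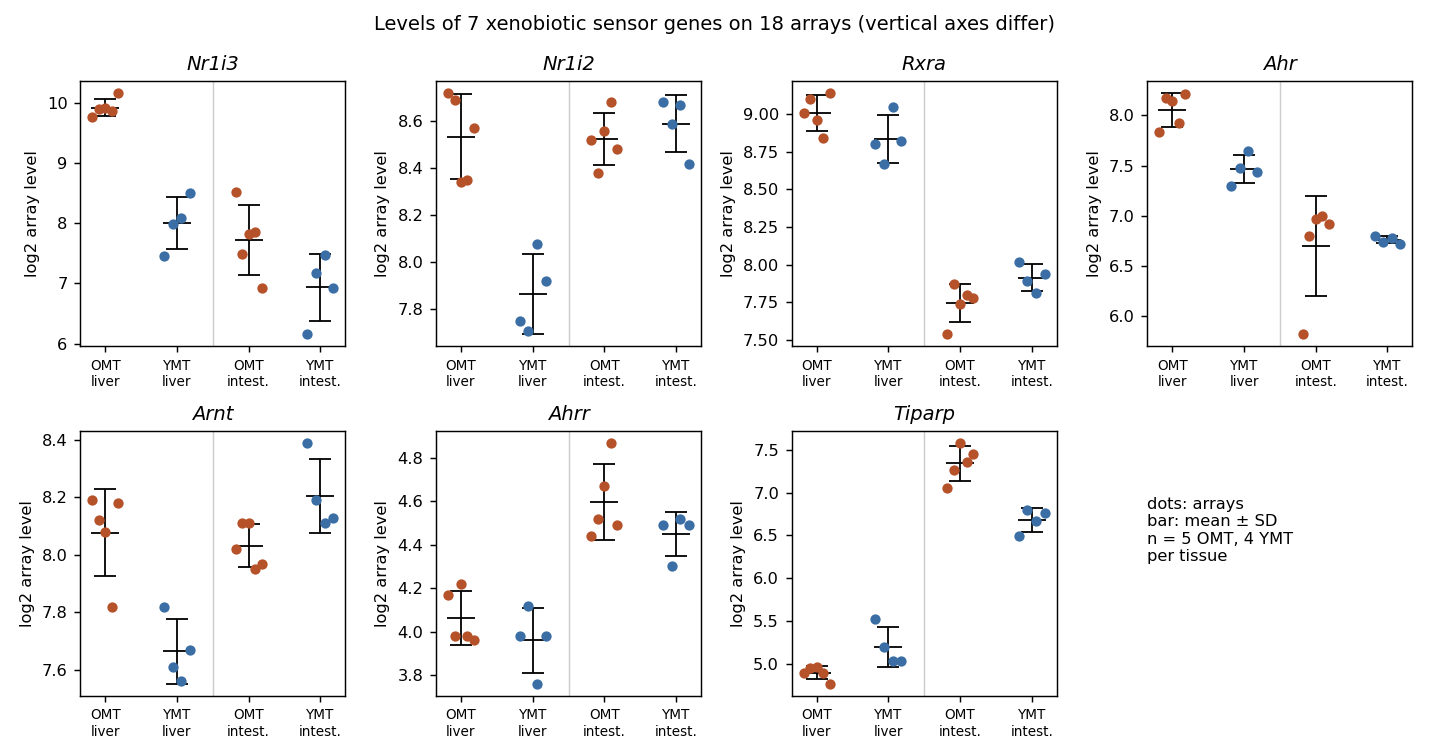
Log2 array level (vertical axis, a separate scale for each gene) of the 7 measured genes in OMT and YMT livers and OMT and YMT intestines; dots are arrays and bars show the mean ± SD (n = 5 OMT and 4 YMT per tissue). In liver the dots of Nr1i3, Nr1i2 and Ahr do not overlap between groups, with OMT above YMT, and in intestine the same holds for Tiparp.

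Transcripts of the aryl hydrocarbon receptor were also higher in OMT livers. Ahr (probe set 17280729) was at 7.83, 8.17, 8.14, 7.92 and 8.21 in OMT livers, against 7.30, 7.48, 7.64 and 7.44 in YMT livers. The groups did not overlap, and the difference was 0.59 ± 0.10 or 1.50-fold (limma adjusted p = 0.00257). In the intestine Ahr was at 5.82, 6.80, 6.97, 7.00 and 6.92 in OMT, against 6.80, 6.74, 6.78 and 6.72 in YMT. OMT replicate 1 lay about a log2 unit below every other intestine array. The difference of -0.06 ± 0.22 (limma adjusted p = 0.896) changed sign without that array, to 0.16 (limma adjusted p = 0.212).

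Arnt, the partner that AhR needs on DNA, was higher in OMT livers by a smaller amount. Its probe set (17400339) was at 8.19, 8.12, 8.08, 7.82 and 8.18 in OMT livers, against 7.82, 7.61, 7.56 and 7.67 in YMT livers. The lowest OMT liver equalled the highest YMT liver, and the other OMT livers lay above all YMT livers. The difference was 0.41 ± 0.09 or 1.33-fold (limma adjusted p = 0.0103). In the intestine Arnt was at 8.02, 8.11, 8.11, 7.95 and 7.97 in OMT, against 8.39, 8.19, 8.11 and 8.13 in YMT. The difference of -0.17 ± 0.08 was not called there (limma adjusted p = 0.224), with the groups meeting at 8.11.

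Ahrr, the repressor, lay near the arrays' medians. In liver its probe set (17294352) exceeded the array's median on 1 of 9 arrays and was not tested; it was at 4.17, 3.98, 4.22, 3.98 and 3.96 in OMT livers, against 3.98, 4.12, 3.76 and 3.98 in YMT livers. In the intestine it exceeded the median on 7 of 9 arrays, at 4.44, 4.52, 4.67, 4.87 and 4.49 in OMT, against 4.49, 4.30, 4.52 and 4.49 in YMT. The intestinal groups overlapped and the difference was 0.15 ± 0.10 (limma adjusted p = 0.398). At levels this close to the median, RMA values narrow differences.

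Tiparp, which encodes an ADP-ribosyltransferase, was the one member called in the intestine. Its brighter probe set (17398082) was at 7.05, 7.26, 7.58, 7.36 and 7.45 in OMT intestines, against 6.49, 6.80, 6.67 and 6.76 in YMT intestines. The groups did not overlap, and the difference was 0.66 ± 0.11 or 1.58-fold (limma adjusted p = 0.0133), ranking 141 by p among the intestine genes. As the mean over both Tiparp probe sets it was 0.42 (limma adjusted p = 0.0219). In liver the same probe set was at 4.90, 4.95, 4.96, 4.90 and 4.77 in OMT, against 5.53, 5.20, 5.03 and 5.04 in YMT. All OMT livers lay below all YMT livers, but the difference of -0.30 ± 0.10 was not called (limma adjusted p = 0.0646). Without YMT replicate 1 it was -0.19, again with no call (limma adjusted p = 0.119), and with quantile normalization within the tissue it was called (limma adjusted p = 0.0492). The second probe set (17548270) was below the array's median on all arrays of both tissues and was not tested. Its mean was 2.08 ± 0.10 in OMT and 2.10 ± 0.13 in YMT livers, and 3.13 ± 0.24 in OMT and 2.96 ± 0.22 in YMT intestines.

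Whether the liver difference exceeded the intestine difference was tested on all 18 arrays, over 11965 genes, of which 11.9% were called, 7.91% with a higher liver difference and 4.04% with a lower one. Of the 6 members tested, 3 were called. The liver difference minus the intestine difference was 0.74 ± 0.14 for Nr1i2 (limma adjusted p = 0.00288) and 0.59 ± 0.12 for Arnt (limma adjusted p = 0.00457). For Tiparp it was -0.96 ± 0.16 (limma adjusted p = 0.000743), the values being below 0 in liver and above 0 in intestine. The difference between tissues was not called for Nr1i3, at 1.13 ± 0.38 (limma adjusted p = 0.0605), so the intestinal value of Nr1i3 cannot be said to fall short of the one in liver. It was called when intestine OMT replicate 1, intestine YMT replicate 1 or liver YMT replicate 4 was left out, at 1.30 to 1.39 (limma adjusted p between 0.0188 and 0.0446). For Ahr it was 0.65 ± 0.25 (limma adjusted p = 0.0948), and 0.43 without intestine OMT replicate 1 (limma adjusted p = 0.0382). For Rxra it was 0.34 ± 0.12 (limma adjusted p = 0.0781), and 0.39 to 0.42 without liver OMT replicate 4 or liver YMT replicate 3 (limma adjusted p between 0.0372 and 0.0472).

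**Figure D2:**
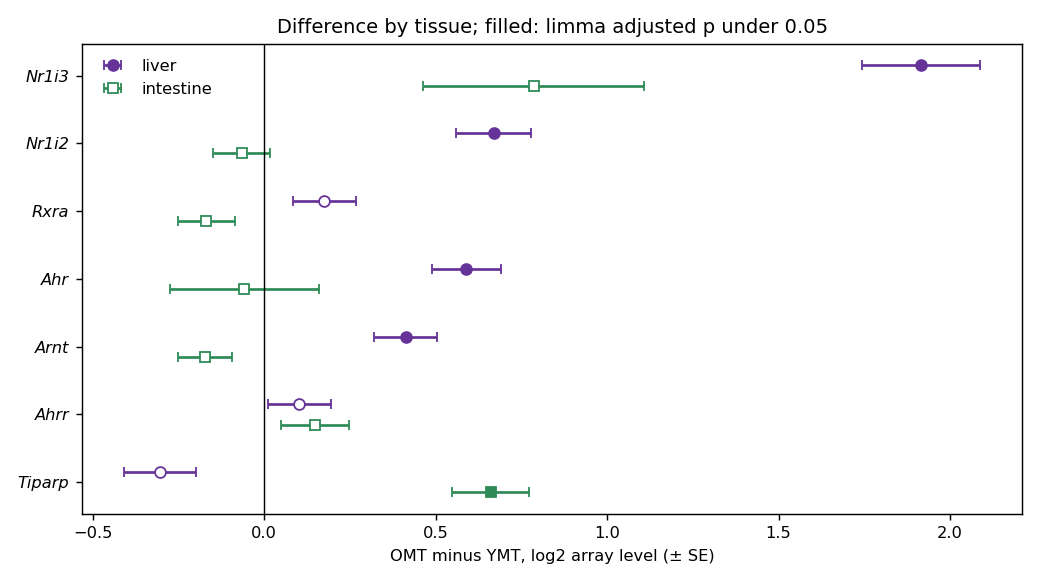
Difference of OMT minus YMT in log2 array level (horizontal axis) for the 7 measured genes, with bars of ± SE, in liver (circles) and intestine (squares); filled symbols had a limma adjusted p under 0.05. The liver value of Ahrr is shown but was not tested. Filled liver symbols run from 0.41 for Arnt to 1.92 for Nr1i3, and Tiparp at 0.66 is the one filled intestine symbol.

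The order of the 4 groups differed from gene to gene; whether both tissues were normalized together is not stated in the sources used here, so levels across tissues rest on that. Nr1i3 was highest in OMT livers (9.92), whose range lay clear of all others, then came YMT livers (8.01), OMT intestines (7.72) and YMT intestines (6.93), each overlapping its neighbour. Nr1i2 was at a like level in YMT intestines (8.59), OMT livers (8.53) and OMT intestines (8.52), with overlapping ranges, and lay below these in YMT livers (7.87) with no overlap. Arnt had the same order of groups, with 8.21 in YMT intestines, 8.08 in OMT livers, 8.03 in OMT intestines and 7.67 in YMT livers. The Arnt range of YMT livers lay clear of both intestine groups, but its highest value equalled the lowest OMT liver (7.82). Rxra and Ahr were higher in both liver groups than in both intestine groups with no overlap, at 9.01 and 8.84 against 7.92 and 7.75 for Rxra, in the order OMT livers, YMT livers, YMT intestines and OMT intestines. In that same order Ahr averaged 8.05, 7.47, 6.76 and 6.70, with the intestine groups overlapping. Tiparp ran the other way, at 7.34 in OMT intestines, 6.68 in YMT intestines, 5.20 in YMT livers and 4.90 in OMT livers, with no overlap at any step.

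Known targets of the receptors were taken from lists of genes written down with earlier results of these data known. Of all genes tested, 19.2% were called in liver, 16.2% in liver without OMT replicates 1 and 2, and 4.14% in intestine. The shares called in liver were 57.1% of CAR, 58.3% of PXR and 50% of AhR targets. In OMT livers the CAR targets moved in both directions: of 14 tested, 5 were higher and 3 lower, and the median difference was 0.25, against -0.01 over all liver genes. Without OMT replicates 1 and 2 the count was 5 higher and 4 lower, with a median of 0.23. Probe sets of close relatives within the Cyp2a, Cyp2b, Cyp2c and Cyp3a families can detect each other's transcripts.

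Among the rises, Cyp2b9, a P450 of the family that CAR is best known to induce, was at 8.47, 9.94, 8.77, 8.67 and 9.27 in OMT livers, against 6.74, 7.36, 8.05 and 7.58 in YMT livers. The groups did not overlap, and the difference was 1.59 ± 0.31 (limma adjusted p = 0.00551). The steroid hydroxylase Cyp2a4 rose by 0.93 ± 0.16 (limma adjusted p = 0.00221) and the coumarin hydroxylase Cyp2a5 by 0.87 ± 0.13 (limma adjusted p = 0.00136). In both Cyp2a genes every OMT liver lay above every YMT liver. Of the genes named after their values were seen, the stress gene Gadd45b was higher by 0.86 ± 0.25 and the efflux pump Abcc4 by 0.49 ± 0.15.

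Among the falls, Cyp2c55, a fatty acid hydroxylase that CAR and PXR ligands induce, was at 6.63, 6.59, 6.05, 5.72 and 6.26 in OMT livers, against 8.66, 8.07, 7.58 and 8.24 in YMT livers. It fell by 1.89 ± 0.23, being 3.70-fold lower (limma adjusted p = 0.000338), with no overlap. Another Cyp2c55 probe set, the one read in intestine, differed by -3.30 in liver, with means of 4.58 in OMT and 7.88 in YMT. Gstm3, a glutathione transferase, fell by 1.24 ± 0.24 and the P450 Cyp2c29 fell by 0.99 ± 0.20, both named after their values were seen.

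Cyp2b10, the most used CAR reporter gene in mice, had no call in liver and split the OMT livers. It was at 6.01, 6.95, 4.49, 5.00 and 4.47 in OMT, against 6.51, 6.90, 7.11 and 6.42 in YMT. OMT replicates 3 to 5 lay more than a log2 unit below every YMT liver, while replicate 2 lay within the YMT range. The difference of -1.35 ± 0.46 (limma adjusted p = 0.0622) was -1.74 without OMT replicate 2 (limma adjusted p = 0.00509) and -2.08 without OMT replicates 1 and 2 (limma adjusted p = 0.000217). OMT replicates 1 and 2 were the OMT livers nearest to YMT in this gene, so leaving them out must widen the difference. These values are therefore no separate test of a fall. Of 20 alternatives, which include these, 7 gave a call for Cyp2b10. Its relative Cyp2b9 was called on the other side of 0 in the same livers.

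The PXR targets in liver were split as well: of 12 tested, 3 were higher and 4 lower, with a median of 0.09. Without OMT replicates 1 and 2 the count was 2 higher and 4 lower, with a median of -0.04. The Cyp3a genes went in both directions. Cyp3a13, a steroid and drug P450, was at 9.44, 9.59, 9.83, 10.02 and 9.92 in OMT livers, against 8.36, 8.43, 8.75 and 8.36 in YMT livers, a rise of 1.28 ± 0.13 (limma adjusted p = 0.000114). Cyp3a11, the main Cyp3a gene of adult mouse liver and the usual PXR reporter, was at 9.37, 9.45, 8.09, 8.64 and 8.78 in OMT livers, against 9.96, 10.13, 10.20 and 10.09 in YMT livers. It fell by 1.23 ± 0.24 (limma adjusted p = 0.00504). The groups were apart for both genes, in opposite order.

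Cyp3a44, another P450 gene of the Cyp3a family, fell by 1.42 ± 0.18 (limma adjusted p = 0.000473). The carboxylesterase Ces2a, which hydrolyses drug esters, was at 9.23, 9.45, 8.20, 8.50 and 8.48 in OMT livers, against 10.41, 10.37, 10.56 and 10.16 in YMT livers, and fell by 1.60 ± 0.23 (limma adjusted p = 0.00101). All OMT livers lay below all YMT livers. The uptake transporter Slco1a4, which carries bile acids and organic anions, was at 8.22, 8.32, 8.59, 8.57 and 8.68 in OMT livers, against 7.44, 7.77, 7.67 and 7.66 in YMT livers, and rose by 0.84 ± 0.11 (limma adjusted p = 0.000488). Named after their values were seen, the glutathione transferase Gstm1 fell by 0.56 ± 0.14 and the retinal dehydrogenase Aldh1a1 rose by 0.33 ± 0.09. The efflux pump genes Abcc2 and Abcc3 differed by 0.17 ± 0.14 and 0.01 ± 0.07, with no call.

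Of 6 AhR targets tested in liver, 2 were higher and 1 was lower, with a median of 0.08, and the count was the same without OMT replicates 1 and 2. Cyp1a2, the P450 that AhR induces in liver, was at 10.67, 10.87, 8.87, 8.96 and 9.23 in OMT, against 11.57, 11.56, 11.68 and 11.58 in YMT. The YMT livers were nearly equal, all OMT livers lay below them, and OMT replicates 3 to 5 lay lowest. Cyp1a2 fell by 1.88 ± 0.40, being 3.67-fold lower (limma adjusted p = 0.00843). Cyp1a1, the most inducible AhR target, was at 4.31, 4.42, 4.39, 3.99 and 4.31 in OMT livers, against 4.34, 4.31, 4.31 and 4.21 in YMT livers. These values were near the arrays' medians, the groups overlapped, and the difference was -0.01 ± 0.09 (limma adjusted p = 0.962).

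Nqo1, a quinone reductase that both AhR and NRF2 induce, was at 7.17, 6.90, 7.70, 7.27 and 6.79 in OMT livers, against 6.07, 6.13, 5.83 and 5.81 in YMT livers. It rose by 1.21 ± 0.17 (limma adjusted p = 0.000714) with no overlap. Socs2, an inhibitor of cytokine signalling that AhR ligands and growth hormone induce, was at 8.35, 7.52, 7.75, 8.75 and 8.47 in OMT livers, against 5.82, 4.40, 6.62 and 5.77 in YMT livers. It rose by 2.52 ± 0.39 (limma adjusted p = 0.00149), and by 1.61 as the mean over its probe sets. Nfe2l2, which encodes NRF2, differed by 0.18 ± 0.09 with no call (limma adjusted p = 0.203).

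**Figure D3:**
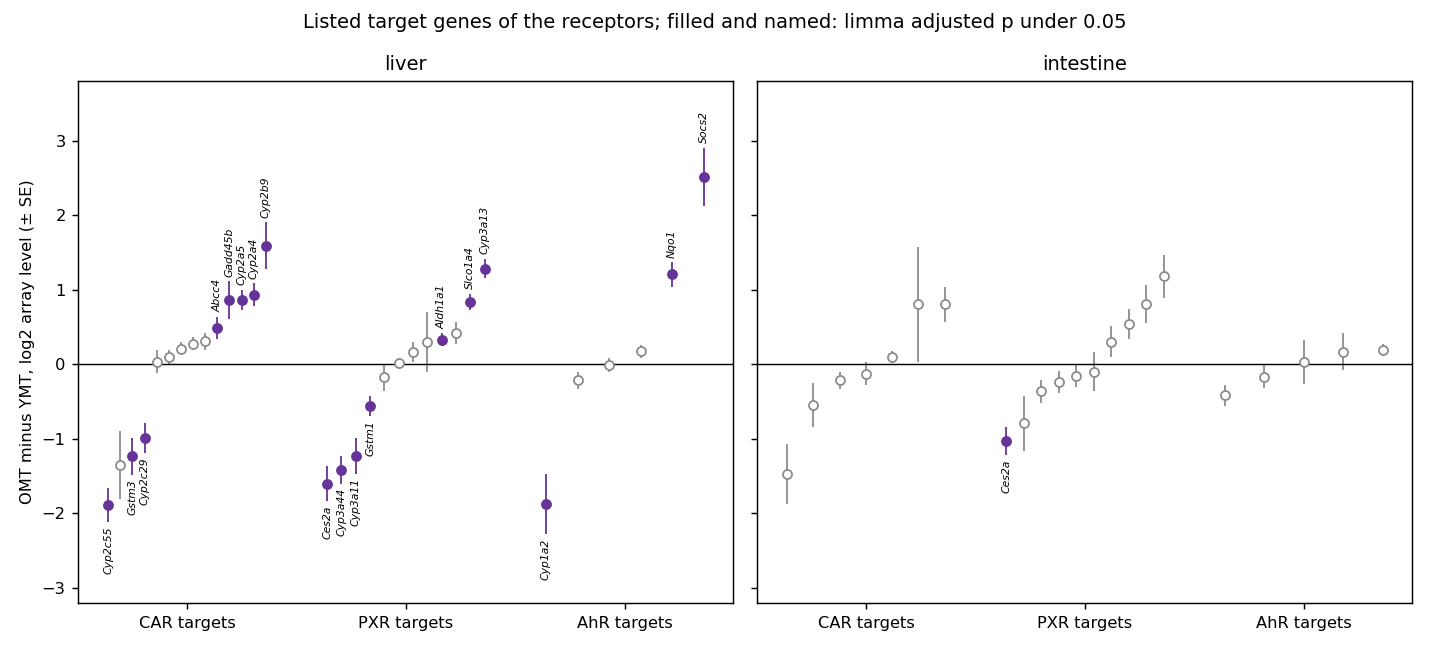
Difference of OMT minus YMT in log2 array level (vertical axis, bars of ± SE) for the tested target genes of CAR, PXR and AhR, in order of size within each list, in liver (left) and intestine (right). Filled, named points had a limma adjusted p under 0.05: 18 genes in liver, on both sides of 0, and Ces2a in intestine.

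In the intestine 1 target gene was called. None of 7 CAR targets and none of 5 AhR targets passed, and the medians were -0.12 and 0.04, against -0.02 over all intestine genes. At an unadjusted limma p under 0.05 the CAR list held Cyp2c55 and Gadd45b, and the AhR list Socs2 and Nfe2l2. Of 10 PXR targets Ces2a fell, by 1.03 ± 0.19 (limma adjusted p = 0.0179). It was at 9.71, 9.30, 8.99, 8.73 and 8.82 in OMT, against 10.03, 10.29, 10.28 and 9.97 in YMT, with no overlap. The call was lost without YMT replicate 2 (limma adjusted p = 0.0662). At an unadjusted limma p under 0.05 the PXR list held Ces2a, Cyp3a11, Aldh1a1, Gstm1 and Abcc2. Without a call, Aldh1a1 differed by 0.81 ± 0.26, Gstm1 by 0.54 ± 0.20 and Abcc2 by -0.36 ± 0.16. The liver difference minus the intestine difference was -1.10 ± 0.25 for Gstm1 (limma adjusted p = 0.00817), a gene named after its values were seen.

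Among the reporter genes, Cyp3a11 differed between the tissues. It was at 7.37, 7.72, 7.90, 7.69 and 7.19 in OMT intestines, against 5.50, 6.70, 7.19 and 6.19 in YMT intestines. The groups met at 7.19, and the difference of 1.18 ± 0.29 was not called (limma adjusted p = 0.0533), though it was without YMT replicate 3, at 1.44 (limma adjusted p = 0.0245). The liver difference minus the intestine difference was -2.41 for Cyp3a11 (limma adjusted p = 0.000818). Cyp2b10 was at 10.32, 9.56, 10.05, 9.56 and 7.98 in OMT intestines, against 6.05, 9.49, 10.30 and 8.92 in YMT intestines. Its difference of 0.80 ± 0.77 (limma adjusted p = 0.566) was -0.08 without YMT replicate 1.

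Cyp2c55, read in the intestine by a different probe set than in liver, was at 8.93, 8.73, 8.93, 6.82 and 8.08 in OMT intestines, against 10.11, 9.91, 9.73 and 9.32 in YMT intestines. The groups did not overlap, but the difference of -1.47 ± 0.40 was not called (limma adjusted p = 0.0653); without OMT replicate 4 it was -1.10 and was called (limma adjusted p = 0.0295). Cyp1a1 was at 5.79, 5.81, 6.12, 4.80 and 4.73 in OMT intestines, against 5.56, 5.64, 5.49 and 4.96 in YMT intestines. The groups overlapped, with a difference of 0.04 ± 0.30 (limma adjusted p = 0.954). Cyp1a2 was below the level filter in intestine, at 4.14 to 4.49 in OMT and 4.04 to 4.15 in YMT. Socs2 was at 6.98, 6.73, 6.81, 7.29 and 7.43 in OMT intestines, against 7.57, 7.54, 7.35 and 7.39 in YMT intestines, a difference of -0.41 ± 0.14 (limma adjusted p = 0.125).

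**Figure D4:**
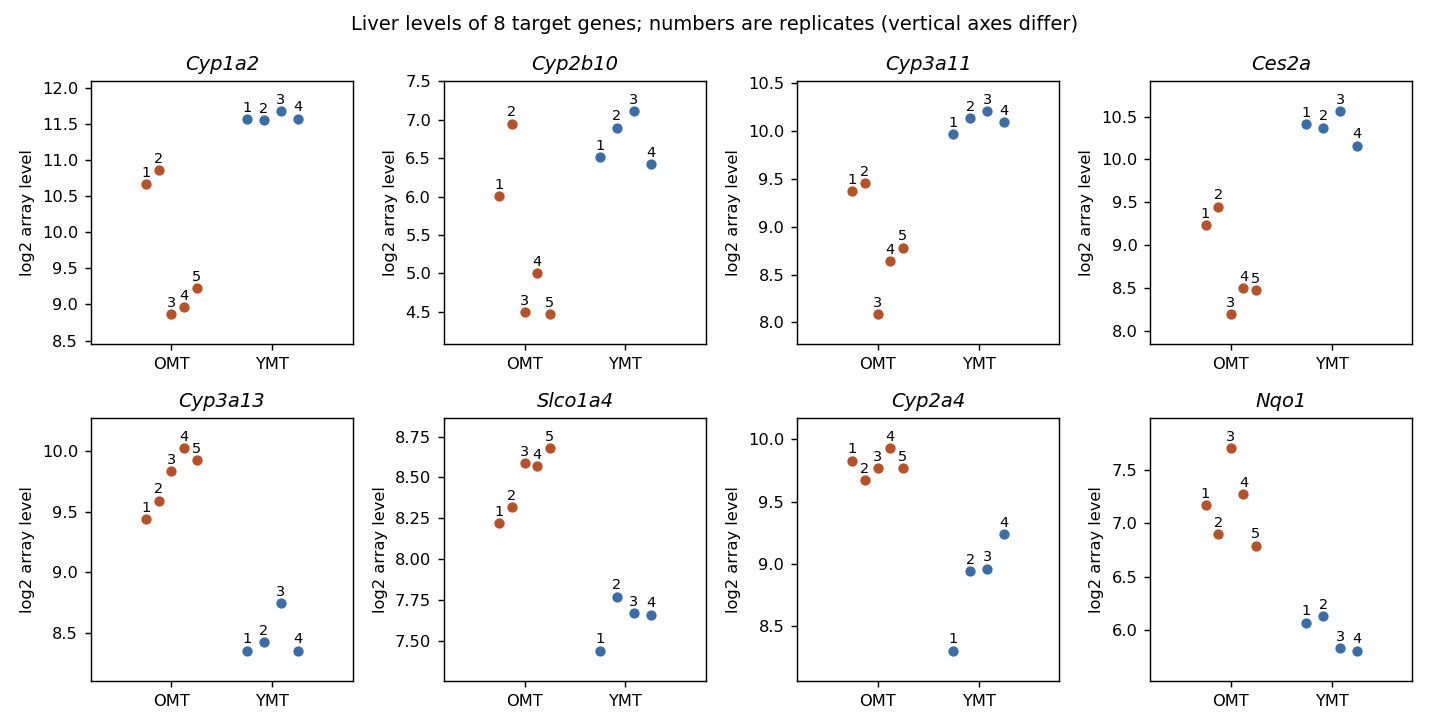
Log2 array level (vertical axis, a separate scale for each gene) of 8 target genes in OMT and YMT livers, each dot an array marked with its replicate number. For Cyp1a2, Cyp2b10, Cyp3a11 and Ces2a OMT replicates 1 and 2 lie nearest to the YMT livers and replicates 3 to 5 lower; Cyp3a13, Slco1a4, Cyp2a4 and Nqo1 are higher on all OMT arrays than on any YMT array.

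Beyond the targets, the other genes of the pathway were read from further lists. In liver the share called was 16.7% in the cytosolic complex list and 15.4% in the RXR list, below 19.2% of all genes. It was 50% for relatives of AhR and ARNT, 36.4% for cofactors, 41.7% for electron transfer, 42.9% for heme synthesis and 45.5% for PARP relatives. In intestine the share was 18.2% in the RXR list, 9.09% for cofactors and 16.7% for electron transfer, against 4.14% of all genes. Of 6 components of the cytosolic complex that holds AhR and CAR, 1 was called in liver, where the median was -0.06, and 1 was called without OMT replicates 1 and 2. The chaperone gene Hsp90aa1 was at 7.66, 7.97, 8.09, 7.75 and 7.82 in OMT livers, against 6.69, 6.56, 6.53 and 6.48 in YMT livers. It rose by 1.29 ± 0.09 (limma adjusted p = 1.509e-05), with the groups far apart. The co-chaperone genes Ptges3, which encodes p23, and Dnajc7, which encodes the CAR retention protein, differed by 0.12 ± 0.16 and 0.03 ± 0.07 with no call. In the intestine none of 5 was called by limma, and 2 had an unadjusted p under 0.05, as many intestine genes did. Hsp90aa1 had the smallest p there, with a difference of 0.53 ± 0.14 (limma adjusted p = 0.0619), and was called without YMT replicate 4, at 0.68 (limma adjusted p = 0.0185).

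Of 6 relatives of AhR and ARNT tested in liver, 2 were higher and 1 lower, with a median of -0.03. The circadian activators Clock and Arntl rose by 0.58 ± 0.15 and 1.16 ± 0.33 (limma adjusted p = 0.0189 and 0.0302). Hif1a, whose product also pairs with ARNT, fell by 0.35 ± 0.09 (limma adjusted p = 0.0247). The call of Clock was lost without YMT replicate 4 (limma adjusted p = 0.0575). That of Arntl was lost without any one of OMT replicates 3, 4 and 5 and YMT replicates 2, 3 and 4 (limma adjusted p between 0.0531 and 0.0765). That of Hif1a was lost without any one of OMT replicates 3 and 5 and YMT replicates 1 and 4 (limma adjusted p between 0.0517 and 0.0616). Without OMT replicates 1 and 2 the count was 1 higher and 1 lower. None of 8 relatives was called by limma in intestine, and 1 had an unadjusted p under 0.05, as many intestine genes did. Hif3a had the smallest p (0.20 ± 0.09, limma adjusted p = 0.213).

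Of 13 other RXR genes and receptors that pair with RXR, 1 was higher and 1 lower in OMT livers, with a median of -0.01. The bile acid receptor gene Nr1h4 (FXR) rose by 0.35 ± 0.07 (limma adjusted p = 0.00784), at 9.21 to 9.34 in OMT livers and 8.76 to 9.04 in YMT livers. With all 18 arrays in 1 fit that call of Nr1h4 was lost (limma adjusted p = 0.0927). The thyroid hormone receptor gene Thra fell by 0.45 ± 0.11 (limma adjusted p = 0.0141). Without OMT replicates 1 and 2 the count was again 1 higher and 1 lower. In the intestine 2 of 11 were called, both lower. The fatty acid receptor gene Ppard was at 7.52, 8.12, 7.96, 7.92 and 8.12 in OMT intestines, against 9.20, 8.96, 8.83 and 9.20 in YMT intestines, and fell by 1.12 ± 0.13 (limma adjusted p = 0.00412). Nr1h4 fell by 0.92 ± 0.18 in intestine (limma adjusted p = 0.0253), a call lost without any one of OMT replicates 1, 2 and 3 and YMT replicate 4 (limma adjusted p between 0.0507 and 0.0714). The liver difference minus the intestine difference of Nr1h4 was 1.27 (limma adjusted p = 0.000608).

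Of 11 receptor cofactors and regulators in liver, 2 were higher and 2 lower, with a median of 0.08. The hepatocyte factor Hnf4a rose by 0.55 ± 0.11 (limma adjusted p = 0.00683), at 10.59, 10.52, 10.04, 10.18 and 10.30 in OMT livers, against 9.84, 9.67, 9.86 and 9.72 in YMT livers. The corepressor Nrip1 rose by 0.61 ± 0.13 (limma adjusted p = 0.00947), and the coactivator Ppargc1a fell by 0.73 ± 0.11 (limma adjusted p = 0.00127). Groups did not overlap for any of these genes. Egfr, whose signalling keeps CAR in the cytosol, fell by 0.68 ± 0.21 (limma adjusted p = 0.0427), a call lost without any one of OMT replicates 2, 3 and 4 and YMT replicates 2, 3 and 4 (limma adjusted p between 0.0509 and 0.109). Without OMT replicates 1 and 2, the count was 2 higher and 1 lower. In intestine 1 of 11 was called, the nuclear receptor repressor Nr0b2 (SHP), higher by 0.58 ± 0.12 (limma adjusted p = 0.0255). That call was lost without any one of OMT replicates 2 and 3 and YMT replicates 2, 3 and 4 (limma adjusted p between 0.0557 and 0.0714).

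P450 enzymes need electrons and heme. Of 12 genes of electron transfer or of enzymes that draw on it, 1 was higher and 4 lower in OMT livers, with a median of -0.17. Cyb5r3, the cytochrome b5 reductase, was at 10.62, 10.60, 10.80, 10.42 and 10.60 in OMT livers, against 11.74, 11.49, 11.39 and 11.43 in YMT livers, and fell by 0.90 ± 0.10 (limma adjusted p = 0.000154). Fdx1, which encodes ferredoxin, fell by 0.50 ± 0.07, and Pgrmc2, which encodes a heme-binding protein, by 0.61 ± 0.11 (limma adjusted p = 0.00125 and 0.00331). The heme oxygenase gene Hmox1, an NRF2 target as well, rose by 0.97 ± 0.12 (limma adjusted p = 0.000375), with all OMT livers above all YMT livers. The remaining call, named after its value was seen, was the sterol reductase Dhcr7, which fell by 0.96 ± 0.22. The count was 1 higher and 5 lower without OMT replicates 1 and 2.

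In the intestine 2 of these 12 genes were called, both of sterol synthesis. Cyp51, the lanosterol demethylase, fell by 1.26 ± 0.22 (limma adjusted p = 0.0165), a call lost without YMT replicate 2 (limma adjusted p = 0.0533). Sqle, the squalene epoxidase, fell by 1.26 ± 0.29 (limma adjusted p = 0.0423). That call was lost without any single array other than OMT replicate 5 (limma adjusted p between 0.0524 and 0.112).

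Transcripts of the first enzyme of heme synthesis were higher in OMT livers. Its gene Alas1, which sets the rate of the pathway and is a CAR and PXR target in mouse liver, was at 11.87, 11.83, 11.11, 11.47 and 11.60 in OMT, against 9.06, 10.02, 10.87 and 10.95 in YMT. The groups did not overlap, although YMT replicates 1 and 2 lay well below replicates 3 and 4. Alas1 rose by 1.35 ± 0.34 (limma adjusted p = 0.0189), a call lost without YMT replicate 2 (limma adjusted p = 0.0596). Cpox, the coproporphyrinogen oxidase, rose by 0.63 ± 0.12 (limma adjusted p = 0.00472). Urod, a decarboxylase, fell by 0.28 ± 0.08 (limma adjusted p = 0.0380), and its call was lost without any single array other than OMT replicates 3 and 4 (limma adjusted p between 0.0524 and 0.0883). Of the 7 genes tested 2 were thus higher and 1 lower, with a median of 0.04, and 1 was higher and none lower without OMT replicates 1 and 2. In intestine none of 7 was called by limma, and 1 had an unadjusted p under 0.05, as many intestine genes did. Fech, which inserts the iron, had the smallest p (-0.28 ± 0.12, limma adjusted p = 0.204).

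Relatives of Tiparp in the PARP family were mostly lower where called: of 11 tested in liver, 4 were lower and 1 higher, with a median of -0.20. Parp12 was at 7.32, 7.49, 7.52, 7.45 and 7.43 in OMT livers, against 8.02, 8.07, 7.92 and 7.90 in YMT livers, and fell by 0.54 ± 0.07 (limma adjusted p = 0.000495). Parp4 fell by 0.56 ± 0.12, Zc3hav1 by 0.31 ± 0.08 and Parp14 by 0.37 ± 0.10 (limma adjusted p = 0.00763, 0.0244 and 0.0317). The call of Zc3hav1 was lost without YMT replicate 2 or 3 (limma adjusted p = 0.0651 or 0.0699). That of Parp14 was lost without any one of OMT replicates 3, 4 and 5 and YMT replicates 2, 3 and 4 (limma adjusted p between 0.0568 and 0.0952). Parp16, named after its value was seen, rose by 0.41 ± 0.12. The count of these relatives was the same without OMT replicates 1 and 2. Parp12, Parp14 and Zc3hav1 are interferon-induced. In intestine, where Tiparp rose, none of its 12 relatives was called by limma, and 2 had an unadjusted p under 0.05, as many intestine genes did. Parp12 had the smallest p (-0.60 ± 0.22, limma adjusted p = 0.139).

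For the member with the largest called difference in each tissue, the genes most alike across the 9 arrays were found after group means were subtracted. In liver, Nr1i3 was most alike to Lipg, the endothelial lipase gene (Pearson r = 0.959, Spearman rho = 0.967), Bcorl1 (0.951 and 0.711) and Tbx3os2 (0.937 and 0.870). In intestine, Tiparp was most alike to Ctsw, a protease of cytotoxic lymphocytes (r = 0.974, rho = 0.967), Lasp1 (0.965 and 0.958) and Parp4 (0.959 and 0.958). These are the highest of all genes tested, so they describe likeness within groups, over points that share their arrays. Between groups the same genes need not move together: Lipg fell by 0.95 ± 0.26 in OMT livers (limma adjusted p = 0.0281) and Ctsw fell by 0.47 ± 0.10 in OMT intestines (limma adjusted p = 0.0320).

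Markers of other cell types moved with the liver comparison. Over all genes tested, 10.4% were called higher and 8.78% lower in liver, and 1.04% higher and 3.1% lower in intestine. Of 5 endothelial markers 3 were lower in OMT livers (mean level of the list 6.46 to 6.78 in OMT and 6.93 to 7.33 in YMT), as were 4 of 6 stellate cell and fibroblast markers (6.12 to 6.35 in OMT and 6.57 to 6.92 in YMT) and 1 of 6 macrophage and dendritic cell markers, Clec4f. None of the 6 hepatocyte markers was called. Of the markers of hepatocyte position in the lobule, 1 of 10 pericentral ones was higher and 3 lower, and 1 of 7 periportal ones was higher and 3 lower. In OMT intestines 2 of 10 T and NK cell markers were lower, Gzma and Gzmb, as were Kit of 3 innate lymphoid markers and Itgax of 7 macrophage and dendritic cell markers, and none of 6 enterocyte markers was called. The part of these cell types in the differences of the receptor genes was not tested.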

How the data were processed

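RNA from 5 OMT and 4 YMT livers and as many intestines was hybridised to 1 array each. Per the submitters' processing notes, the authors made the deposited log2 values with RMA in Affymetrix Expression Console; the sources used here give no versions, no array batches and not whether both tissues were normalized together. The method subtracts background, equalizes distributions and combines probes, which shrinks differences of dim probe sets. The values run from 0.30 to 13.50, from which a log base of 2 was inferred.

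Of 41345 probe sets, 23521 have 1 gene symbol in the platform annotation, 1814 have several and 16010 are unnamed here. Tested in a tissue were probe sets with 1 symbol whose value was above the median of its array on 4 or more of 9 arrays; the probe set of highest mean stood for its gene. OMT was compared with YMT within each tissue by limma 3.58.1 (lmFit and eBayes, two-sided) in R 4.3.3, with Benjamini-Hochberg adjustment over all genes tested and a threshold of 0.05. For the difference between tissues a model with 4 groups was fitted to the 18 arrays together. It treats the arrays as independent, though the sample titles do not say whether a liver and an intestine came from the same mouse. Steps were tested on simulated data. No 2 arrays held identical values.

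Groups come from the sample titles. The same replicate numbers in OMT and YMT did not mark pairs: correlations of same-numbered deviations lay between -0.142 and 0.218. Between liver and intestine of the same group, correlations of same-numbered deviations lay between -0.036 and 0.112. Members and gene lists were chosen with earlier results of these data known. Named are all members with every array, Cyp1a1, Cyp1a2, Cyp2b10 and Cyp3a11, from each other list and tissue up to 4 genes past the threshold by smallest p or else the 1 of smallest p, and the 3 genes most alike to the member of largest called difference. Alternatives were no level filter, one at the 75th percentile, trend and robust eBayes, array weights, quantile normalization, median centring, the mean over probe sets, a replicate block, all 18 arrays, a threshold of 0.10 and each array left out. Leaving out OMT replicates 1 and 2 was added after the data were seen. Promoter windows are RefSeq sequences of assembly GRCm38.p6; no other coordinates are printed, since the array's build is not named.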

Additional observations from a re-analysis of the deposited data

Results flagged for a closer look

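Among 130 pairs of a named gene and a group, 11 single arrays lay far from the other arrays of their group by Dixon's test; chance gives about 1 in 20 such pairs. In liver these were Cyp1a1 in OMT replicate 4 (3.99, others 4.31 to 4.42), Cyp3a44 in OMT replicate 3 (3.56, others 4.36 to 4.60), Clock in OMT replicate 4 (8.87, others 9.05 to 9.12) and Nrip1 in OMT replicate 5 (7.07, others 6.65 to 6.75). In YMT livers they were Cyp1a2 in replicate 3 (11.68, others 11.56 to 11.58) and Cyp2a5 in replicate 1 (5.02, others 5.54 to 5.64). In OMT intestines they were Ahr in replicate 1 (5.82, others 6.80 to 7.00) and Cyp1a2 in replicate 1 (4.49, others 4.14 to 4.17). In YMT intestines they were Ahrr in replicate 2 (4.30, others 4.49 to 4.52), Hsp90aa1 in replicate 4 (7.23, others 6.58 to 6.67) and Cyp51 in replicate 1 (9.20, others 8.60 to 8.65).

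Of 15 genes named in both tissues by the naming rule and tested for a difference between them, 8 passed in limma's interaction test. Over all 11965 genes tested between tissues, 11.9% were called. The rule names list genes by their small p in these same data, so this count is no separate result about them. The liver difference minus the intestine difference was above 0 for Nr1i2 (0.74), Arnt (0.59), Socs2 (2.93), Hsp90aa1 (0.76) and Nr1h4 (1.27), and below 0 for Tiparp (-0.96), Cyp3a11 (-2.41) and Cyp2c55 (-1.83). Limma's adjusted p was between 0.000402 for Socs2 and 0.0284 for Cyp2c55. The value of Cyp2c55 was read on its intestinal probe set in both tissues, which is not the one reported for liver. On that probe set OMT minus YMT was -3.30 in liver and -1.47 in intestine.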

How the results depend on the processing

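The count of members called was 4 in liver and 1 in intestine; over 20 alternatives each it was 4 to 5 and 1. With single arrays left out it was 4 in liver and 1 in intestine. The count of target genes called in liver, 18, was 15 to 22 over the alternatives and 15 to 19 with single arrays left out. In intestine the count of target genes called, 1, was 3 with the filter at the 75th percentile, 5 with array weights, 2 with quantile normalization, 4 with the replicate block, 4 with all 18 arrays in the fit, 4 at a threshold of 0.10, and 0 to 2 with single arrays left out. For the difference between tissues 3 members were called; this was 6 at a threshold of 0.10, 2 with probe sets averaged per gene, where Tiparp was not tested, and 3 to 5 with single arrays left out, 5 being without intestine OMT replicate 1. The replicate block left the counts of members at 4, 1 and 3.

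Some calls of single genes were lost in liver under settings other than leaving arrays out. Within a tissue the replicate block fits the replicate number as a factor, although same-numbered arrays did not mark pairs. OMT replicate 5 has no YMT array of its number, so under the block it does not enter the difference. With the replicate block the calls lost were Nr1h4 (limma adjusted p = 0.0593), Thra (0.0713), Hif1a, Arntl, Egfr, Alas1, Urod, Zc3hav1 and Parp14. With all 18 arrays in the fit they were Nr1h4, Hif1a, Urod, Zc3hav1 and Parp14, and with no level filter Arntl, Egfr, Urod and Parp14. Hif1a was also lost with probe sets averaged per gene, and Urod with centred arrays. In intestine Sqle was lost with no level filter and with all 18 arrays, and Nr0b2 with all 18 arrays. Without liver OMT replicates 1 and 2 the calls of Clock, Egfr, Alas1, Urod and Zc3hav1 were lost, and without intestine OMT replicates 1 and 2 those of Nr1h4, Nr0b2, Cyp51 and Sqle. The block and the fit of all 18 arrays each gave a call in intestine for Cyp3a11, Cyp2c55, Hsp90aa1 and Parp12, and array weights for the first 3 of these. Nr1i3 was called for the difference between tissues with the filter at the 75th percentile (limma adjusted p = 0.0465) and with array weights (0.00668).

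Other values changed sign. Cyp1a1 in liver was 0.0125 with array weights, 0.065 without OMT replicate 4, 0.00733 without YMT replicate 1, and -0.0425 to 0.065 with single arrays left out. Ahr in intestine was 0.10 with array weights, 0.16 without OMT replicate 1 and 0.20 without OMT replicates 1 and 2. Nr1i2 in intestine was 0.00383 with quantile normalization. Cyp1a1 in intestine was -0.015 with centred arrays, below 0 without OMT replicate 1, 2 or 3 or YMT replicate 4, -0.13 to 0.2175 with single arrays left out, and -0.20 without OMT replicates 1 and 2. Cyp2b10 in intestine was -0.076 without YMT replicate 1, and -0.076 to 1.341 with single arrays left out. The cause was not tested. Arrays per group limit what could be called, and dim probe sets such as Ahrr and the second one of Tiparp limit the size RMA can show.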

Other observations

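In intestine, Nr1i3 and 2 reporter genes of the xenobiotic receptors shared some of their extreme arrays, a pattern noticed after the values were seen. YMT replicate 1 was the lowest of all 9 intestine arrays for Nr1i3 (6.16), Cyp2b10 (6.05) and Cyp3a11 (5.50). OMT replicate 5 was the lowest OMT array for the same genes, at 6.92, 7.98 and 7.19. OMT replicate 1 was the highest array for Nr1i3 (8.51) and Cyp2b10 (10.32), but for Cyp3a11 it was at 7.37 and OMT replicate 3 was highest (7.90). YMT replicate 3 was the highest YMT array for Nr1i3 (7.47), Cyp2b10 (10.30) and Cyp3a11 (7.19). In liver the order was shared only in part. The OMT liver with the highest Nr1i3 level, replicate 5 (10.16), had the lowest Cyp2b10 level (4.47). Among YMT livers replicate 1 was lowest for Nr1i3 (7.46) and Cyp3a11 (9.96), while replicate 4 was lowest for Cyp2b10 (6.42).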
